A study of Mus musculus with 18 samples.

Results

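The 10 genes described here encode the main heparan sulfate proteoglycans of the basement membrane and the cell surface, namely agrin (*Agrn*), perlecan (*Hspg2*), 4 glypicans (*Gpc1*, *Gpc3*, *Gpc4* and *Gpc6*) and the 4 syndecans (*Sdc1* to *Sdc4*). They were taken by symbol from a table of 55453 gene symbols, and all 10 passed the filter on low counts that left 16170 genes for testing. The libraries were made to compare fibroblasts of the mouse heart within the early postnatal window in which it regenerates with fibroblasts of the later window in which it scars. Bulk RNA sequencing was done on GFP+ cells of the apical ventricles, isolated by flow cytometry, in 18 libraries that form 6 groups of 3. All pups were labelled C57BL/6J and carried 1 copy each of Tcf21-MerCreMer, a tamoxifen-inducible Cre driven from the *Tcf21* locus, and of Rosa-mTmG, a reporter that switches from tdTomato to membrane GFP in cells where Cre has acted and in their descendants. Tamoxifen was given at P1 to every pup, controls included. The P2 window held P2 baseline (un-manipulated pups taken at P2), P2 sham +3 days (sham surgery at P2, collected at P5) and P2 resected +3 days (apical resection at P2, collected at P5). The P10 window held P10 baseline (un-manipulated, taken at P10), P10 sham +3 days (sham surgery at P10, collected at P13) and P10 resected +3 days (apical resection at P10, collected at P13). The sex of the pups and the number of pups per library were not given, so p-values measure the spread between these libraries, which may be partly technical.

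Heparan sulfate proteoglycans are core proteins that carry long, sulfated sugar chains. The chains bind growth factors such as FGFs, VEGF, Wnt and hedgehog proteins, and so store these ligands in the matrix or present them to their receptors. Agrin and perlecan are secreted and sit in basement membranes, where they bind laminin and dystroglycan; agrin is also the nerve-derived signal that clusters acetylcholine receptors at the neuromuscular junction. Glypicans are tied to the outer leaflet of the cell membrane by a lipid anchor. Syndecans span the membrane and work as co-receptors beside integrins and growth factor receptors.

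On the GRCm38 assembly, *Gpc3* (ENSMUSG00000055653.13) lies at chrX:52272426-52613950 and *Gpc4* (ENSMUSG00000031119.4) at chrX:52053021-52165252, both on the minus strand. They are neighbours, 107173 bases apart with 0 annotated genes between them. *Sdc2* (ENSMUSG00000022261.6) lies at chr15:32920723-33034935 on the plus strand. These 3 genes are the members that changed between the windows. RefSeq promoter sequences of GRCm38.p6, from 250 bases before to 50 bases after a start, were found for 7 of the 10 members. The promoters of *Gpc3* and *Gpc4* are shown because these neighbours fell together, with each GC box in capitals (GGGCGG on either strand, here read as CCGCCC).
Gpc3 promoter, chrX:52613925-52614224, minus strand: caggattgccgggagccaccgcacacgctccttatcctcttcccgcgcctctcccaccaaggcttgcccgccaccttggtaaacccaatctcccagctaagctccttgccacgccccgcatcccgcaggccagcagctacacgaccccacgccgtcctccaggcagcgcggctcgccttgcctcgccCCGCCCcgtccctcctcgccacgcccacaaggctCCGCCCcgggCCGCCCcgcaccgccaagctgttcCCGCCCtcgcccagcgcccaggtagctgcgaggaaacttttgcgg
Gpc4 promoter, chrX:52164874-52165173, minus strand: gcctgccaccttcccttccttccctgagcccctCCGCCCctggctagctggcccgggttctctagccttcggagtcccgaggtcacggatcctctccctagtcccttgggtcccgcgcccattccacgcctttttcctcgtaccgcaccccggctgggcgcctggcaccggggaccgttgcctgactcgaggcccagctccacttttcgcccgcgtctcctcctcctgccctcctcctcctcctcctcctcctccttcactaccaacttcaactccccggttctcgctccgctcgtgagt
The *Gpc3* window held 4 GC boxes and 1 CCAAT box, and the *Gpc4* window held 1 GC box and 1 match to GGAATG, the core of the Tead motif. Neither held TATAAA or the E-box CAGCTG. Both strands were searched, and no match overlapped another in these windows. Of 32851 mouse promoters of this length, 35.7% held at least 1 GC box, 5.49% at least 4, 37.4% a CCAAT box and 14.7% GGAATG. GC content was 70.7% for *Gpc3* and 66.7% for *Gpc4* against a median of 52.7%, and the windows held 30 and 22 CpG dinucleotides against a median of 7. These matches describe the sequence and were not tied to any measured difference.

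Total counts per library ran from 10462737 to 22980554, and values below are CPM (the count of a gene scaled to a common library total). *Tcf21*, the gene whose locus drives Cre, was at 292 ± 74.0 CPM in the P2 window and 288 ± 52.8 in the P10 window (SD, n = 9 each), and *Pdgfra*, a receptor that marks fibroblasts, at 391 ± 115 and 533 ± 205. Neither passed the test (adjusted p = 0.993 and 0.220, edgeR's quasi-likelihood F test, Benjamini-Hochberg adjusted). Summed over 6 fibroblast markers, levels were 19612 to 39280 CPM in the P2 window and 27305 to 45135 in the P10 window. Markers of other cells were also present. Summed over 10 cardiomyocyte markers they reached 289 to 1389 CPM at P2 and 146 to 705 at P10, over 8 mural cell markers 512 to 1360 and 861 to 1984, over 9 endothelial markers 175 to 463 and 256 to 481, and over 10 macrophage markers 7.76 to 395 and 18.3 to 1010. Between the windows 5 of the 10 cardiomyocyte markers fell, 3 of 8 mural cell markers rose and 1 fell, and 1 of 10 macrophage markers rose. Of the 6 fibroblast markers 1 rose, decorin (*Dcn*), at a log2 fold change of 0.95 (adjusted p = 0.000262, edgeR). Epicardial markers (8 genes) summed to at most 55.4 CPM and Schwann cell markers (4 genes) to at most 9.85 in any library, and *Sox10* had no count in the P2 window.

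**Figure D1:**
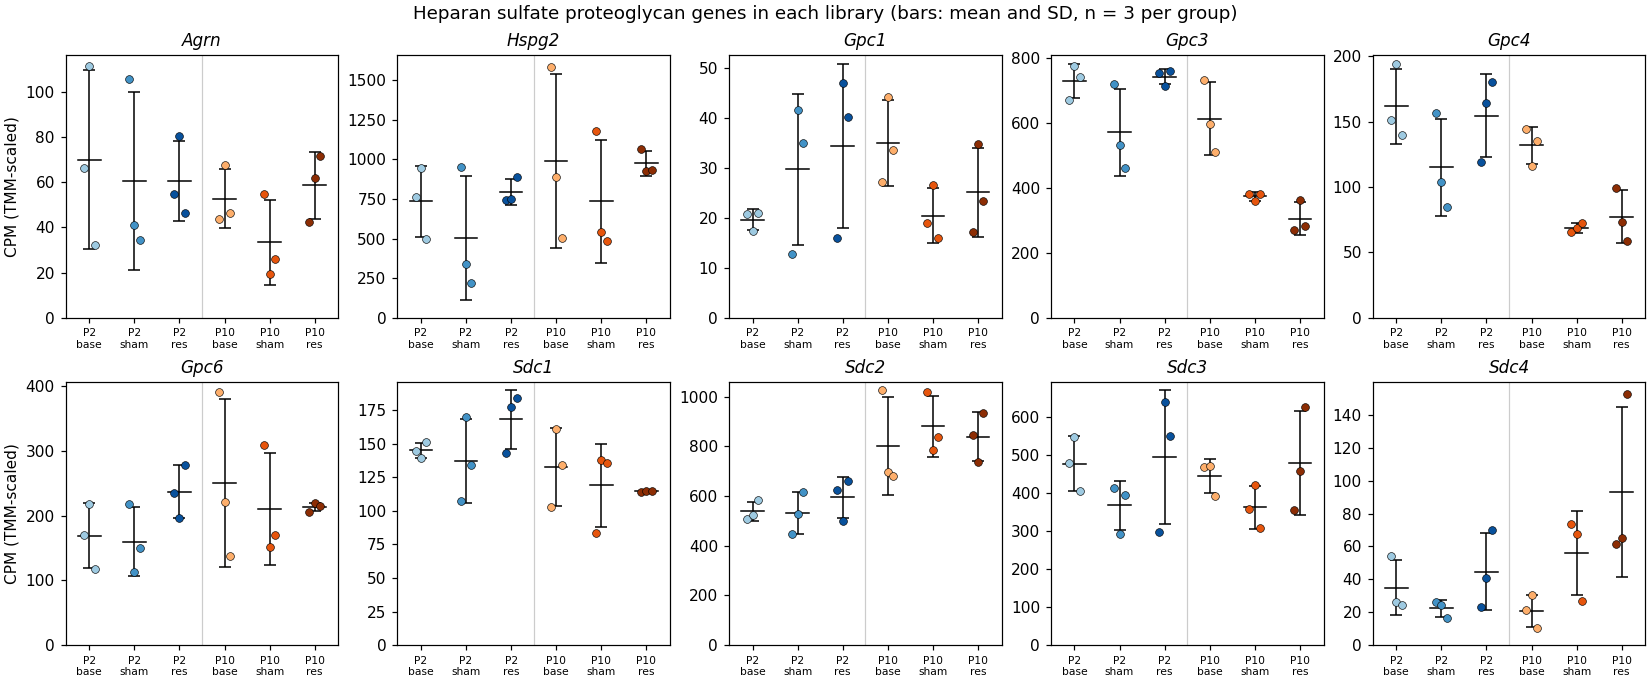
Each panel plots 1 gene, with CPM on the y axis from 0 and the 6 groups on the x axis (base, baseline; res, resected); points are libraries, and bars give the mean and SD (n = 3). *Gpc3* and *Gpc4* were lowest in the P10 sham and resected groups, while every P10 library of *Sdc2* lay above every P2 library.

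To compare levels between genes, CPM were divided by the kilobases of annotated exon (RPKM). Over all 18 libraries *Gpc3* and *Sdc2* stood first, at 206 ± 67.8 and 198 ± 50.6 RPKM (SD, n = 18), and exchanged places between the windows. *Gpc3* was above *Sdc2* in 9 of 18 libraries, a count that pools both windows. Means were 253 ± 40.9 RPKM of *Gpc3* and 157 ± 19.6 of *Sdc2* in the P2 window. In the P10 window they were 160 ± 56.8 and 238 ± 37.0 (SD, n = 9 each). Below them came *Sdc3* at 73.1 ± 17.2 RPKM, which was under *Sdc2* in all 18 libraries. *Hspg2* followed at 55.2 ± 22.9, *Gpc4* at 44.6 ± 15.9, *Sdc1* at 35.7 ± 7.03 and *Gpc6* at 32.1 ± 10.8 RPKM. Their ranges overlapped, and each was above the next in 10 to 16 of 18 libraries. *Sdc4* was at 17.8 ± 13.3 RPKM. The lowest members were *Agrn* at 6.03 ± 2.705 and *Gpc1* at 5.31 ± 2.12 RPKM, and *Agrn* was above *Gpc1* in 7 of 18 libraries. Of the summed RPKM of *Hspg2* and *Agrn*, perlecan made up 86.9% ± 3.79 in the P2 window and 92.0% ± 2.85 in the P10 window (n = 9 each).

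The order changed with age at its head. *Gpc3* was first in the 3 groups of the P2 window, at 271 ± 19.9, 212 ± 49.5 and 276 ± 8.87 RPKM in the baseline, sham and resected groups, against 152 ± 11.2, 150 ± 23.7 and 169 ± 23.6 RPKM of *Sdc2* (SD, n = 3 each). At P10 baseline the genes were level, with 228 ± 41.5 RPKM of *Gpc3* and 227 ± 55.8 of *Sdc2*. In the P10 sham group *Sdc2* was first at 249.7 ± 34.9 RPKM with *Gpc3* at 139 ± 4.73, and in the P10 resected group *Sdc2* was at 238 ± 27.8 with *Gpc3* at 113 ± 19.04. *Sdc3* ranked 3 in all 6 groups, and *Gpc4* went from rank 4 in the 3 P2 groups to rank 5 in the baseline, rank 7 in the sham and rank 8 in the resected group at P10.

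**Figure D2:**
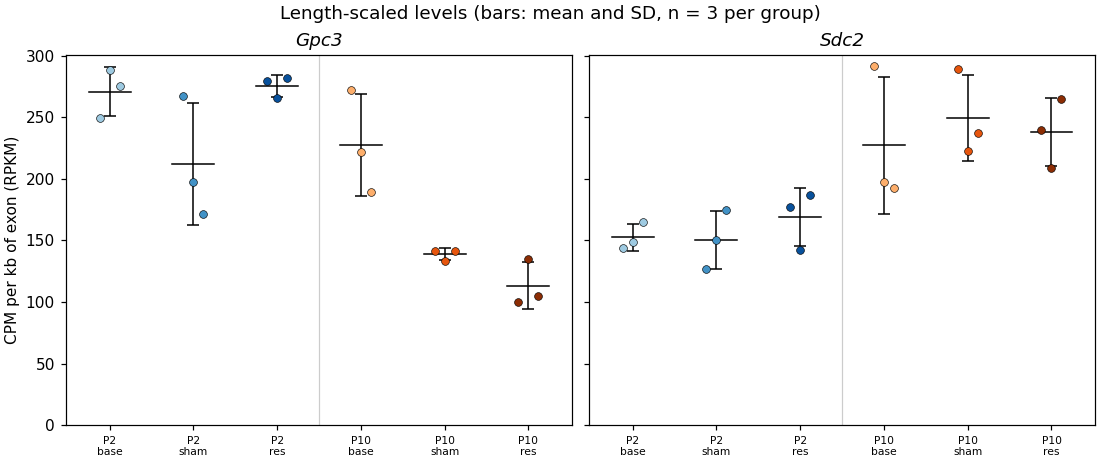
RPKM (CPM per kilobase of exon) on a shared y axis from 0 for *Gpc3* (left) and *Sdc2* (right) in the 6 groups; points are libraries, and bars give the mean and SD (n = 3). The means cross between P2, where *Gpc3* is at 212 to 276 RPKM and *Sdc2* at 150 to 169, and the operated P10 groups, where *Gpc3* is at 113 to 139 and *Sdc2* at 238 to 249.7.

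Summed over the 10 members the level differed between the windows by less than the SD, at 680.5 ± 94.3 RPKM at P2 and 667 ± 107 at P10 (SD, n = 9 each). Its makeup moved from glypicans to syndecans. The 4 glypicans summed to 342 ± 57.6 RPKM at P2 and 235 ± 74.96 at P10, and the 4 syndecans to 284 ± 34.0 and 364 ± 48.9. By group the glypican sum at P2 was 362 ± 32.7 RPKM in baseline, 286 ± 67.7 in sham and 377 ± 20.5 in resected libraries, and at P10 it was 323 ± 63.3, 201 ± 15.3 and 180.5 ± 20.4 (SD, n = 3 each). The P10 baseline sum lay between those of the P2 groups, and the low sums were those of the operated P10 groups. *Gpc3* alone made up 32.0% to 41.0% of the sum over the 10 members in P2 libraries and 15.045% to 31.3% in P10 libraries, ranges that did not overlap. The share of *Sdc2* was 18.8% to 32.7% at P2 and 27.9% to 41.6% at P10, with overlap. Within the glypicans *Gpc3* made up most of the sum, at 74.1% ± 2.49 and 67.4% ± 4.67, while *Gpc6* went from 8.54% ± 1.78 to 15.3% ± 4.55. These shares are sums of separate genes, were not tested, and move against each other by construction.

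The first comparison set the 9 libraries of the P10 window against the 9 of the P2 window. *Gpc3* and *Gpc4* fell and *Sdc2* rose, and the other 7 members did not pass the test. The 3 of 10 members called compare with 13.5% of all genes tested in this comparison (7.11% higher and 6.39% lower at P10). The median log2 fold change was -0.05 over the members and -0.06 over all genes. In bulk samples fewer cells that express a gene and less of its RNA per cell cannot be told apart. By the paper's methods, hearts of the P10 window were also digested for longer, and they were collected longer after tamoxifen. Age and these steps cannot be told apart.

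*Gpc3*, a glypican that binds hedgehog ligands and restrains body growth, was at 670.1, 775 and 739.9 CPM in the P2 baseline libraries, 718, 532 and 460.2 after sham surgery and 752, 714 and 758 after resection. At P10 it was at 731, 596 and 509.7 CPM at baseline, 380.4, 358 and 380.5 after sham surgery and 269, 363 and 282 after resection. The operated P10 libraries were below all P2 libraries, while the P10 baseline libraries lay within the P2 range. Between the windows *Gpc3* was 1.64-fold lower at P10 (log2 fold change -0.71, SE 0.11, 95% interval -0.96 to -0.47, adjusted p = 0.000373, edgeR's quasi-likelihood F test, Benjamini-Hochberg adjusted).

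Its neighbour *Gpc4*, a glypican known as an astrocyte signal that promotes synapses, had 151, 194 and 140.1 CPM at P2 baseline, 157, 104 and 84.8 after sham surgery and 119, 165 and 180.2 after resection. The P10 libraries held 144, 116 and 135 CPM at baseline, 65.4, 68.4 and 72.8 after sham surgery and 99.2, 73.5 and 59.0 after resection. The P10 sham libraries were below all P2 libraries, and the P10 baseline libraries were not. *Gpc4* was 1.6-fold lower at P10 (log2 fold change -0.68, SE 0.15, 95% interval -0.99 to -0.37, adjusted p = 0.00450 by edgeR's quasi-likelihood F test, Benjamini-Hochberg adjusted).

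*Sdc2*, a syndecan of mesenchymal cells, moved the other way. It was at 507, 525 and 582 CPM at P2 baseline, 448, 529 and 615 after sham surgery and 625, 501 and 659 after resection. The P10 values were 1028, 697 and 679 CPM at baseline, 1019.8, 786 and 836 after sham surgery and 846, 737 and 933 after resection. All 9 P10 libraries were above all 9 P2 libraries, a separation seen in 2.51% of genes tested. *Sdc2* was 1.52-fold higher at P10 (log2 fold change 0.60, SE 0.12, 95% interval 0.35 to 0.85, adjusted p = 0.00215 by edgeR's quasi-likelihood F test, Benjamini-Hochberg adjusted).

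*Gpc3*, *Gpc4* and *Sdc2* were called under each of the 23 alternative settings run for this comparison, leaving out each library in turn included. Over the same libraries 5 cardiomyocyte markers and 1 mural cell marker fell, and 3 mural cell markers, 1 macrophage marker and 1 fibroblast marker rose, at the summed levels given above, and their part in these 3 changes was not tested. As *Gpc3* and *Gpc4* are X-linked, the libraries were checked for *Xist*, which is transcribed from the inactive X chromosome of female cells. *Xist* had counts in 5 of 9 P2 and 4 of 9 P10 libraries, and in 2 of the 5 and 2 of the 4 the Y-linked *Ddx3y* had counts too. All 3 P10 baseline libraries had *Xist*, and all 5 P10 libraries without it were from operated pups. The 1 operated P10 library with *Xist*, P10 sham replicate 3, had 380.5 CPM of *Gpc3* and 72.8 of *Gpc4*, beside 380.4 and 358 and beside 65.4 and 68.4 in the P10 sham libraries without it. At P2 the median of *Gpc3* was 727 CPM in the 4 libraries without *Xist* and 718 in the 5 with it, and that of *Gpc4* 152 and 151. At P10 these medians were 358 CPM in the 5 libraries without *Xist*, all operated, and 553 in the 4 with it, 3 of them baseline, for *Gpc3*, and 68.4 and 126 for *Gpc4*. No test of sex was made.

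The other members between the windows are given by role, with p adjusted by Benjamini-Hochberg after edgeR's quasi-likelihood F test. Agrin, at 19.3 to 112 CPM over all libraries, had a log2 fold change of -0.44 (SE 0.28, adjusted p = 0.333). Perlecan had one of 0.43 (SE 0.27, adjusted p = 0.340), on levels that ran from 218 to 952 CPM at P2 and 482 to 1586 at P10. Without P2 sham replicate 1, its highest P2 library at 952 CPM, the value for perlecan was 0.71 and passed the threshold (adjusted p = 0.04997). *Gpc6*, a glypican known for its part in skeletal growth, was at 0.27 (SE 0.21, adjusted p = 0.436) and *Gpc1* at -0.05 (SE 0.25, adjusted p = 0.938). In *Gpc1*, 18.9% of the exon bases are shared with *Ankmy1* on the other strand, and the counting did not use strand, so its reads are uncertain. *Sdc3* shares 6.93% with *Gm26716* in the same way. *Sdc1*, an epithelial and wound-induced syndecan, was at -0.30 (SE 0.13, 95% interval -0.58 to -0.01, adjusted p = 0.160), *Sdc3* at -0.06 (SE 0.15, adjusted p = 0.873) and *Sdc4*, a focal adhesion component, at 0.55 (SE 0.29, adjusted p = 0.235). The intervals of *Sdc3* (-0.38 to 0.27) and *Gpc1* (-0.58 to 0.48) leave room for modest changes in either direction.

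**Figure D3:**
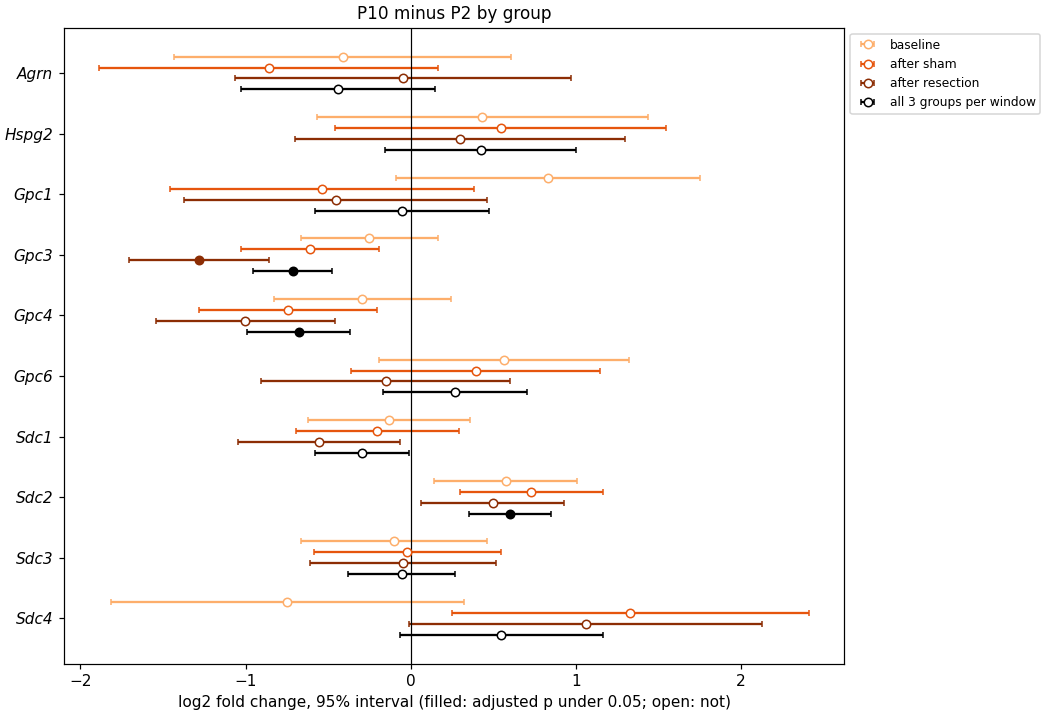
Log2 fold change of P10 against P2 (x axis) for each of the 10 genes (y axis), at baseline, after either surgery and over all 3 groups per window; points are estimates, bars 95% intervals, and filled points passed an adjusted p of 0.05. *Gpc3* goes from -0.25 at baseline to -1.28 after resection, and *Sdc2* is at 0.50 to 0.73 in every group.

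Next, the ages were compared within each kind of group. At baseline (P10 against P2) 0 of 10 members were called by edgeR's quasi-likelihood test, 1 had an unadjusted p under 0.05, and DESeq2 and limma voom each called 1. Over all genes edgeR called 4.38%, DESeq2 10.1% (of genes to which it gave an adjusted p, here and below) and limma voom 22.5%, and 18.7% had an unadjusted p under 0.05. That member was *Sdc2* (log2 fold change 0.58, SE 0.21, adjusted p = 0.128, higher in 3 of 3 libraries). *Gpc3* at -0.25 (SE 0.20, adjusted p = 0.549) and *Gpc4* at -0.29 (SE 0.25, adjusted p = 0.597) overlapped between the ages. *Gpc1* was at 17.3 to 21.0 CPM at P2 and 27.2 to 44.1 at P10, with a log2 fold change of 0.83 (adjusted p = 0.323). *Sdc2* and *Gpc1* made 2 of 10 members whose libraries did not overlap, close to the 22.4% of all genes.

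After sham surgery (P13 against P5) 0 of 10 members were called by edgeR, where 3.18% of all genes were. DESeq2 called 2 (*Sdc2* and *Gpc3*) and limma voom 0, with 7.73% and 4.37% of all genes. An unadjusted p under 0.05 was found for 4 members, against 16.3% of all genes. These were *Sdc2* at a log2 fold change of 0.73 (SE 0.21, adjusted p = 0.0630), *Gpc4* at -0.74 (SE 0.26, adjusted p = 0.143), *Gpc3* at -0.61 (SE 0.20, adjusted p = 0.113) and *Sdc4* at 1.33 (SE 0.51, adjusted p = 0.199), all from edgeR's quasi-likelihood F test, Benjamini-Hochberg adjusted. The same 4 of 10 did not overlap between the ages, against 16.7% of all genes. *Sdc4* was at 26.3, 24.2 and 16.3 CPM after sham surgery at P2 and at 73.8, 67.6 and 26.9 at P10. Its lowest P10 library was just above its highest P2 library. Without the filter on low counts *Sdc4* was called by edgeR's quasi-likelihood F test (adjusted p = 0.0113), where 3.15% of all genes were. Agrin had a log2 fold change of -0.86 (adjusted p = 0.405), which ran from -0.18 without P2 sham replicate 1 to -1.42 without P10 sham replicate 1.

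After resection (P13 against P5) *Gpc3* fell 2.43-fold, with all 3 P10 libraries (269 to 363 CPM) below all 3 P2 libraries (714 to 758). Its log2 fold change was -1.28 (SE 0.20, 95% interval -1.70 to -0.86, adjusted p = 0.00380, edgeR's quasi-likelihood F test, Benjamini-Hochberg adjusted), and it was called under all 12 alternatives run. It was the 1 member of 10 called, where 0.86% of all genes were; DESeq2 called 3.63% of all genes and limma voom 5.62%. *Gpc4* had a log2 fold change of -1.001 (SE 0.26), with an adjusted p of 0.0815 by edgeR, 0.0121 by DESeq2 and 0.00445 by limma voom. *Sdc1*, at 143 to 184 CPM after resection at P2 and 114 to 115 at P10, was at -0.55 (adjusted p = 0.467 by edgeR and 0.0341 by limma voom). *Sdc2* was at 0.50 (adjusted p = 0.446 by edgeR and 0.0389 by limma voom) and *Sdc4* at 1.06 (SE 0.51, adjusted p = 0.577), the latter from 0.52 without P10 resected replicate 3 to 1.53 without P2 resected replicate 3. *Hspg2*, *Gpc3*, *Gpc4*, *Sdc1* and *Sdc2* did not overlap between the ages, 5 of 10 members where 23.3% of all genes did not.

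Whether the effect of age differed between kinds of group was tested directly, in contrasts added after the data were seen. The effect on *Gpc3* after resection was 1.03 lower on the log2 scale than at baseline (difference -1.03, SE 0.28, 95% interval -1.62 to -0.44), with an adjusted p of 0.317 by edgeR, 0.0417 by DESeq2 and 0.0282 by limma voom, so that the call rested on the tool. edgeR called 0.0557% of all genes in this contrast, DESeq2 0.842% and limma voom 0.952%. For *Gpc4* this difference was -0.71 (adjusted p = 0.881), and for *Sdc4* 1.81 (adjusted p = 0.712). The effect after sham surgery less that at baseline was 2.08 for *Sdc4* (SE 0.72, adjusted p = 0.590), -1.37 for *Gpc1* (SE 0.62, adjusted p = 0.739) and -0.36 for *Gpc3* (adjusted p = 0.947). For *Sdc4* the adjusted p by edgeR was 0.0218 without the filter on low counts, where 0.592% of all genes were called. The baseline and operated groups also differ in age, by 3 days.

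In sham surgery against baseline at P10 the smallest p-values of members were those of *Gpc4*, *Gpc3* and *Sdc4*. *Gpc3* was at 510 to 731 CPM at P10 baseline and 358 to 380.5 after sham surgery, and *Gpc4* at 116 to 144 and 65.4 to 72.8. Neither overlapped. Log2 fold changes were -0.71 for *Gpc3* (SE 0.20, unadjusted p = 0.00213, adjusted p = 0.401, edgeR's quasi-likelihood test) and -0.94 for *Gpc4* (SE 0.26, adjusted p = 0.401). *Sdc4* was at 10.6 to 30.5 CPM at baseline and 26.9 to 73.8 after sham surgery, at 1.43 (SE 0.51, adjusted p = 0.604). Without the filter on low counts its adjusted p was 0.0352 by the same test, where 0.522% of all genes were called. edgeR called 0 of 10 members and 0.00618% of all genes, DESeq2 2 members (*Gpc3* and *Gpc4*) and 1.07% of all genes, and limma voom 0 members and 0.00618% of all genes. Of the members 3 had an unadjusted p under 0.05, against 7.4% of all genes, and 3 did not overlap, against 10%. Those without overlap were *Gpc3*, *Gpc4* and *Gpc1*, while *Sdc4* overlapped. *Gpc1* had a log2 fold change of -0.77 (adjusted p = 0.749, edgeR's quasi-likelihood test). At P2 the same comparison had 0 members called by any of the 3 tools (edgeR and limma voom called 0% of all genes and DESeq2 1.09%) and 0 with an unadjusted p under 0.05 (7.6% of all genes), with *Gpc3* at -0.35 and *Gpc4* at -0.49 (adjusted p = 0.700 and 0.677). Surgery and the 3 days of growth between these groups cannot be told apart.

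Apical resection against sham surgery addressed the response to injury. At P2 and at P10 edgeR, DESeq2 and limma voom called 0 of 10 members. Over all genes edgeR and limma voom called 0% at both ages, and DESeq2 0.182% at P2 and 0.259% at P10. An unadjusted p under 0.05 was found for 0 members, against 4.51% of all genes at P2 and 4.09% at P10. No member was free of overlap, against 8.47% and 8.68% of all genes. Estimates at P2 were positive for 9 of 10 members with a median of 0.40, beside 0 over all genes, and at P10 for 7 of 10 with a median of 0.23, beside 0.02. The largest at P2 were *Sdc4* at 1.00 (SE 0.51), *Hspg2* at 0.66 (SE 0.48) and *Gpc6* at 0.57 (SE 0.36). With 1 library left out the value for *Hspg2* ran from 0.30 (without P2 sham replicate 3) to 1.51 (without P2 sham replicate 1), that for *Sdc4* from 0.53 (without P2 resected replicate 3) to 1.31 (without P2 resected replicate 1), and that for *Gpc6* from 0.36 (without P2 sham replicate 2) to 0.86 (without P2 sham replicate 1). The P2 sham libraries varied widely for perlecan, at 952, 341 and 218 CPM, and the P2 resected libraries, at 744, 751 and 886, lay within that range. *Sdc4* was at 23.3, 40.8 and 69.7 CPM after resection at P2, and at 61.5, 65.0 and 153 after resection at P10.

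*Gpc3* was the member whose resection estimates pointed in different directions at the 2 ages with the smallest unadjusted p of the difference. Resection less sham was 0.38 at P2 (95% interval -0.04 to 0.80) and -0.29 at P10 (-0.71 to 0.12). The difference of -0.67 (SE 0.28) had an unadjusted p of 0.0278 and an adjusted p of 1.00 by edgeR's quasi-likelihood test, and 2.88% of all genes had an unadjusted p under 0.05. *Gpc4* was at 0.42 (SE 0.25) at P2. At P10 *Agrn* was at 0.81 (SE 0.49), from 0.54 without P10 sham replicate 2 to 1.38 without P10 sham replicate 1. *Sdc4* was at 0.73 (SE 0.51), from 0.17 without P10 resected replicate 3 to 0.98 without P10 sham replicate 1. The intervals for *Sdc2*, -0.27 to 0.60 at P2 and -0.50 to 0.36 at P10, were among the narrowest. Macrophage markers, summed, were at 7.76 to 158 CPM after sham surgery and 67.7 to 395 after resection at P2, and at 94.3 to 320.3 and 67.6 to 1010 at P10; their part in these estimates was not tested.

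**Figure D4:**
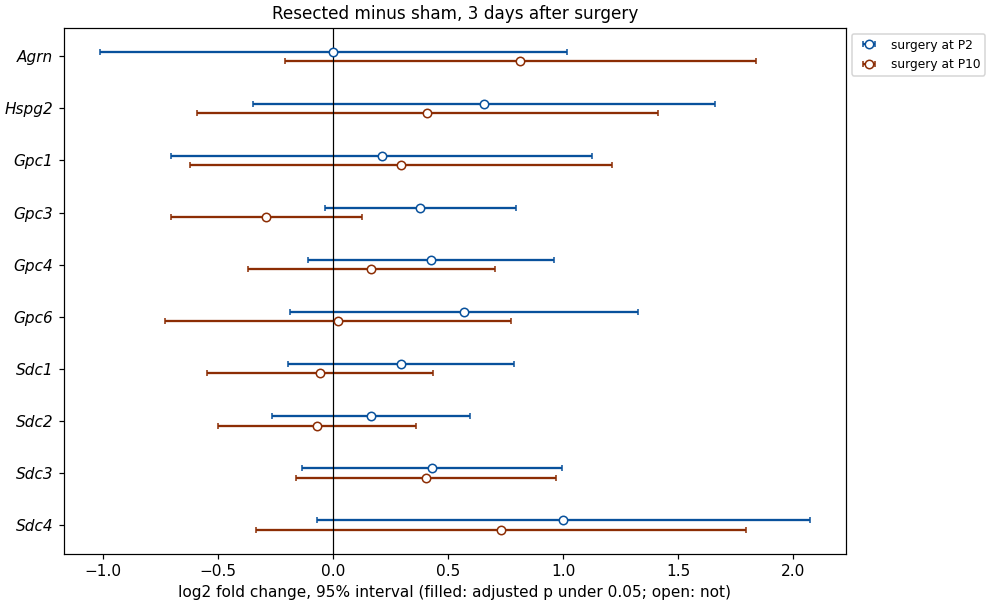
Log2 fold change of resected against sham, 3 days after surgery (x axis), for each of the 10 genes (y axis), with surgery at P2 or at P10; points are estimates and bars 95% intervals. All points are open, as none passed an adjusted p of 0.05, and all but 1 of the P2 estimates lie above 0.

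The members also differed in how they varied among libraries. *Gpc3* and *Gpc4* had a Pearson r of log2 CPM of 0.87 over 18 libraries, and of 0.43 once the group means were taken out. *Hspg2* and *Gpc6*, which lie on different chromosomes, had 0.83 and 0.85, so they also varied together within groups. The genes whose pattern was most like that of *Gpc3* were *Cpe* (r = 0.95), the imprinted *Dlk1* (r = 0.90) and *Sept6* (r = 0.90). For *Gpc4* they were *Sept11*, *Nes* and *Spats2l* (r = 0.90 each). For *Sdc2* they were *Cd55* (r = 0.91), *Clip4* (r = 0.90) and decorin (*Dcn*, r = 0.90), a small matrix proteoglycan that went from 7133 CPM at P2 to 13679 at P10. The libraries share their window and group, and these values describe likeness only.

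Heparan sulfate proteins work through their sugar chains, so 59 other genes of the pathway were taken in 6 lists, of which 48 were tested. Between the windows 8 of the 48 were called, all higher at P10, where 13.5% of all genes were called and 7.11% were higher. The count of 8 was 18 with limma voom, which called 28.3% of all genes, and 5 without P2 resected replicate 1 or without P10 resected replicate 2, where 10.4% and 9.9% of all genes were called. The median log2 fold change was 0.20 over the 48 genes, beside -0.06 over all genes. The counts below are from edgeR's quasi-likelihood F test, Benjamini-Hochberg adjusted.

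Of the 10 modification genes tested, *Hs3st1*, a 3-O-sulfotransferase that makes the antithrombin-binding form of the chain, rose 3.23-fold. It was at 34.4 ± 15.8 CPM in the P2 window (18.8 to 60.4) and 108 ± 37.9 in the P10 window (64.2 to 165; SD, n = 9 each), with no overlap (log2 fold change 1.69, SE 0.19, adjusted p = 1.3e-05). It was also called at baseline (1.92, adjusted p = 0.00328) and after sham surgery (1.74, adjusted p = 0.00616). Among 4 editing and cleavage genes, *Sulf2*, an extracellular 6-O-endosulfatase, rose from 256 ± 52.0 to 398 ± 72.4 CPM (log2 fold change 0.64, adjusted p = 0.00365). Its paralog *Sulf1* was at -0.33 (adjusted p = 0.229).

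Of 6 other heparan sulfate proteoglycans tested, 3 rose. *Col15a1*, the collagen XV chain of the outer basement membrane, went from 279 ± 76.9 to 544 ± 129 CPM (log2 fold change 0.97, adjusted p = 0.00159). *Tgfbr3*, the TGF-β co-receptor betaglycan, went from 67.7 ± 19.1 to 156 ± 77.1 CPM (1.21, adjusted p = 0.00547). P10 baseline replicates 2 and 3, at 88.3 and 60.7 CPM, lay within its P2 range of 32.4 to 94.3. Its highest P10 libraries were sham replicate 1 at 297 CPM and baseline replicate 1 at 236. *Spock2*, a secreted testican, had 52 counts in the P2 window and 454 in the P10 window, of which 1 sham library held 199 and 1 resected library 161 (3.95, SE 1.03, adjusted p = 0.0158).

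In the other lists 1 gene each passed. *Xylt2*, which starts the chain by adding xylose to the core protein, rose from 67.8 ± 16.3 to 99.4 ± 22.7 CPM (log2 fold change 0.56, adjusted p = 0.0221), 1 of 11 genes of linker and chain synthesis. *Ugdh*, the enzyme that makes UDP-glucuronic acid, was at 309 ± 37.9 and 405 ± 79.4 CPM (0.38, adjusted p = 0.0484), 1 of 8 genes of sugar nucleotide and sulfate supply. *Dag1*, which encodes the dystroglycan that binds agrin and perlecan, was at 243 ± 55.7 and 338 ± 69.9 CPM (0.50, adjusted p = 0.0217), 1 of 9 tested shedding and core protein partners. The chain polymerase genes *Ext1* at -0.19 and *Ext2* at 0.32 did not pass (adjusted p = 0.449 and 0.0733). Within the kinds of group, edgeR called 2 of the 48 at baseline (*Hs3st1* and *Xylt2*), where 4.38% of all genes were called, 1 after sham surgery (*Hs3st1*), where 3.18% were, and 0 after resection, where 0.86% were. An unadjusted p under 0.05 was found for 10 of the 48 in the baseline comparison, 12 in the sham and 6 in the resection comparison, against 18.7%, 16.3% and 8.77% of all genes. *Gpc5*, *Spock1*, *Spock3*, *Extl1*, *Ndst4*, *Hs6st3*, *Hs3st2*, *Hs3st4*, *Hs3st5*, *Hs3st6* and *Notum* did not pass the filter on low counts.

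**Figure D5:**
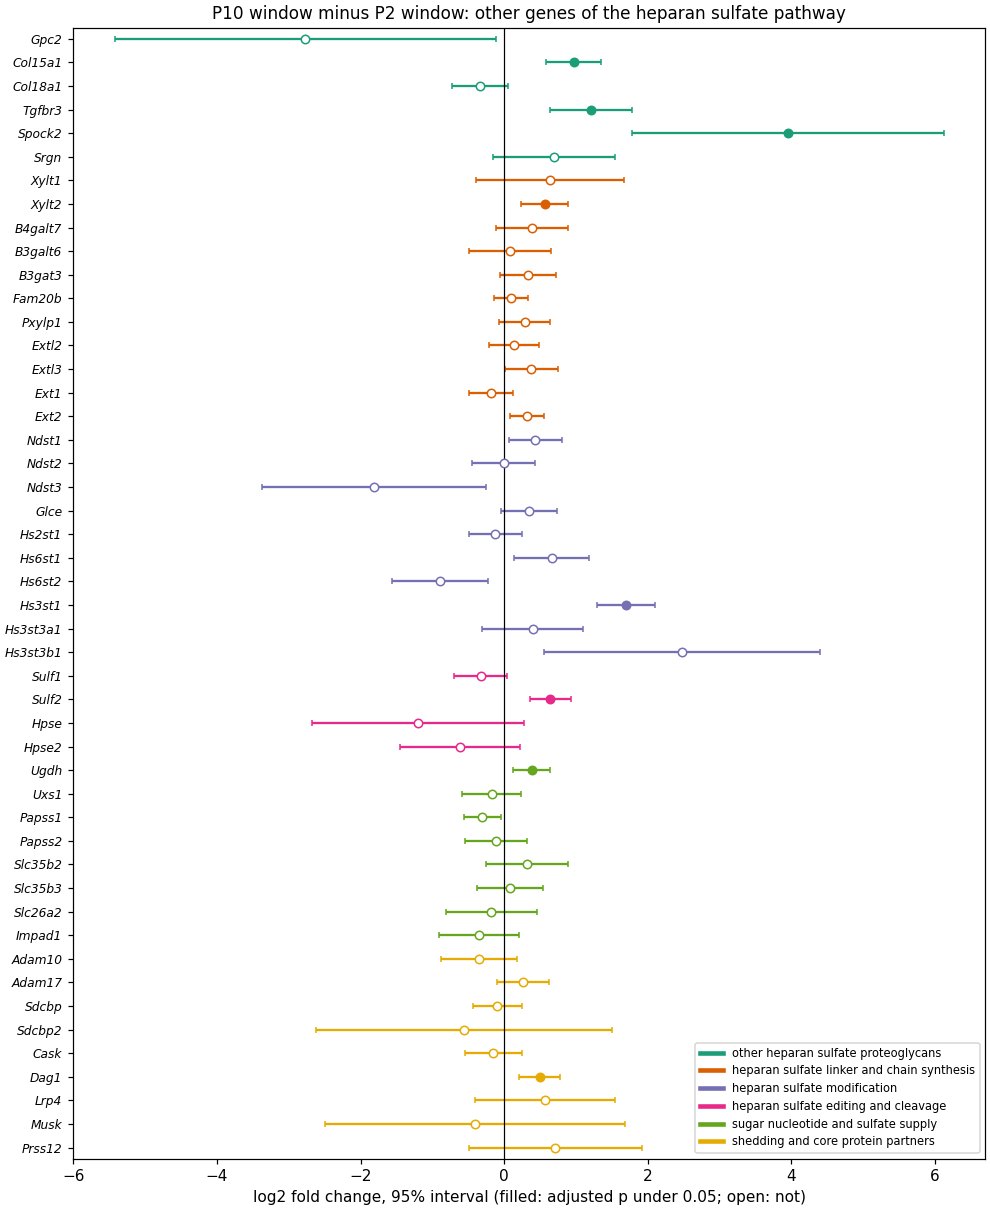
Log2 fold change of the P10 against the P2 window (x axis) for the 48 other heparan sulfate genes tested (y axis), coloured by list; points are estimates, bars 95% intervals, and filled points passed an adjusted p of 0.05. The 8 filled points all lie above 0, from *Ugdh* at 0.38 to *Spock2* at 3.95.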

How the data were processed

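The deposited table holds raw counts per gene symbol for 18 libraries of sorted Tcf21-lineage cells. The authors amplified total RNA with a SMARTer kit, made Nextera XT libraries, trimmed the reads with fastp 0.20.0, mapped them with STAR 2.7.0f to GRCm38.p6 and counted them on GENCODE exons with featureCounts (Subread 1.6.4) without regard to strand. The counts were not normalized. Such counting leaves out reads that fit several genes, so reads of overlapping genes are lost or cannot be assigned.

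The test was edgeR 4.0.16 (R 4.3.3). Genes passed filterByExpr (minimum count 10, minimum total 15), libraries were scaled by TMM, and all 18 libraries entered 1 quasi-likelihood fit with a mean for each group. Benjamini-Hochberg adjusted p under 0.05 over all genes tested was called. RPKM used merged exon lengths of GENCODE M21, whereas the counts were made on M22. Replicates differed by more than sampling noise (chi-square per gene 34.2 to 295). Same-numbered libraries deviated together (every correlation of deviations from group means over 0.1) in 2 comparisons, P10 against P2 after resection (0.12 to 0.19) and sham against baseline at P10 (0.11 to 0.33); this pairing comes from the data, not from the labels. Scripts were tested on simulated data.

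The members, gene lists and comparisons were chosen with earlier results of these data known. All members are named, with the genes of each pathway list called between the windows and the 3 genes of highest Pearson r with each member called there. *Sulf1*, *Ext1* and *Ext2* were added after their values were seen. The alternatives were RLE scaling, no filter, the replicate number as a block, DESeq2 1.42.0, limma 3.58.1 voom with sample quality weights, a fit of only the groups compared, and each library left out.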

Additional observations from a re-analysis of the deposited data

How the results depend on the processing

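Over the 45 log2 fold changes given for members and all alternatives (692 values), 670 kept their direction and side of the threshold, 17 came to pass it, none was lost and 5 changed sign. The sign changes came from leaving out 1 library: *Gpc1* between the windows ranged from -0.18 to 0.068 (0.068 without P2 sham replicate 2, 0.044 without P2 resected replicate 2, 0.017 without P10 resected replicate 1) and *Sdc3* from -0.14 to 0.0199 (0.0199 without P2 resected replicate 2, 0.0032 without P10 resected replicate 1). Members called moved at baseline (0) to 1 with DESeq2 and with limma voom, after sham surgery (0) to 1 without the filter (3.15% of all genes) and 2 with DESeq2, after resection (1) to 2 with DESeq2 and 4 with limma voom, and for sham against baseline at P10 (0) to 1 without the filter (0.522% of all genes) and 2 with DESeq2. For the age effect after sham surgery less that at baseline the count was 1 without the filter (0.592% of all genes), and after resection less baseline 1 with DESeq2 and 1 with limma voom. The member gained without the filter was *Sdc4* in each case. Pathway genes called between the windows (8) were 18 with limma voom and 5 to 11 with 1 library left out, at 5 without P2 resected replicate 1 or P10 resected replicate 2. The cause of these shifts was not tested. Replicate numbers did not pair the libraries over the groups as a whole: of 45 same-number pairs, 15 had a correlation of deviations over 0.1 (-0.13 to 0.38), and 22 correlated best with their own number. With the number as a block, 1 member was called after sham surgery (*Sdc2*) in place of 0, with 3.93% of all genes. For the comparisons in which every same-number correlation was over 0.1, P10 against P2 after resection and sham against baseline at P10, the block left the members called at 1 and 0. With 3 libraries a group the intervals are wide, and SEs of the P10 against P2 difference within 1 kind of group reached 0.51 for *Sdc4* and 0.49 for *Agrn*.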
